A study of Mus musculus with 18 samples.

Results

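The genes described here encode the collagen chains other than those of type IV, the network collagen of basement membranes. A gene was taken when its symbol in the deposited table had the form Col, a number, the letter a and a number, and the 6 type IV genes were left out. Of the 22909 genes with a symbol on the array, 36 met this rule. They were carried by 40 transcript clusters (the probe groups that each give 1 signal per array) of 28856, and of several clusters of a gene the brightest on average was taken. Sorted cells of the kidney glomerulus, the filtering unit of the nephron, were profiled on 18 Affymetrix Mouse Gene ST arrays. Mutant mice were *Cd2ap* -/- (allele tm1Shaw), which lack the adaptor protein Cd2ap of the podocyte slit diaphragm and develop glomerulosclerosis, and control mice were labelled wild type. All mice were 5 weeks of age, and the cells were sorted by a GFP reporter, *Meis1-GFP* for mesangial cells and *Tie2-GFP* for endothelial cells, with podocytes sorted by GFP as well. Each of the 6 groups had 3 arrays, which the study calls biological triplicates, and the sources used here do not say whether 1 array is 1 animal or a pool.

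A collagen molecule is a triple helix of 3 alpha chains. Fibrillar collagens such as types I, III and V assemble into the striated fibers of scar and interstitial matrix, and fibril-associated collagens such as types XII and XIV lie on the surface of those fibers and alter their spacing. Type VI forms beaded microfilaments around cells, types VIII and X form short-chain networks, and types XV and XVIII carry chains of sugar and sit at the border of basement membranes. The healthy mesangium contains type IV, V and VI collagen and little type I or III, and fibrillar collagens accumulate in sclerotic glomeruli.

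Array medians were 62.8 to 71.6, and 9697 to 10097 transcript clusters per array reached 100, the minimum used for a test. Transcript of the targeted gene, *Cd2ap*, had a mean signal of 829 ± 37.6 in mutant and 1027 ± 101 in wild type mesangial cells (SD, n = 3 each), 1498 ± 17.6 and 1775 ± 295 in podocytes, and 926 ± 37.5 and 819 ± 53.9 in endothelial cells. It was not lower in the endothelial arrays labelled mutant, and where its probes lie relative to the altered part of the gene is not given in the sources used here, so the labels alone give the direction of a change. The columns of mesangial controls are named +:- where those of the other controls are named with plus signs only, whereas the genotype label of every control reads wild type, the name used here. Sample titles of the mesangial controls read control, where those of the other controls read wild type. The summed signal of 8 podocyte markers lay between 12939 and 14715 in wild type podocytes and between 848 and 3745 in wild type mesangial cells. The high end of the mesangial range belonged to array C of the wild type group, on which 8 endothelial markers also summed to 7736, against 2522 and 2940 on arrays A and B. The collagens and related genes that passed the mesangial screen, and *Col6a3*, are therefore also given without that array.

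Of the 36 collagens, 24 reached a signal of 100 on at least 1 of the 18 arrays (66.7%, against 46.9% of all transcript clusters). Each collagen is counted by its brightest cluster and the other share is over every cluster, so they are not like for like. By class these were 6 of 11 fibrillar, 7 of 9 fibril-associated, 4 of 6 beaded filament, 2 of 4 transmembrane, 2 of 3 short-chain network and 2 of 2 multiplexin genes, and *Col7a1*, the anchoring fibril collagen. The counts include *Col10a1* only through a cluster shared with *Nt5dc1*, whereas the cluster that carries *Col10a1* alone lay between 62.0 and 93.4. The clusters of *Col9a3* and *Col7a1* also carry a second symbol. The 12 collagens below 100 on all 18 arrays were *Col3a1*, *Col5a2*, *Col5a3*, *Col8a2*, *Col6a4*, *Col9a1*, *Col11a1*, *Col17a1*, *Col19a1*, *Col24a1*, *Col25a1* and *Col28a1*. The 4 that reached 300 on any array were *Col12a1*, *Col14a1*, *Col8a1* and *Col6a3*, and in all 4 the highest array was a mutant mesangial one.

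Mesangial cells are the contractile, matrix-producing pericytes that hold the capillary loops together, and the first comparison asked which collagen transcripts differed there between mutant and wild type mice. If the +:- in the names of the control columns marks heterozygous mice, it compares -/- with +/- mice. Of the 14 collagens that reached the minimum on any of the 6 mesangial arrays, 3 were higher in the mutant by a screen with the thresholds of the study (unadjusted p under 0.05 and fold change over 1.5), here tested with limma, and 0 were lower. Among all 11457 transcript clusters tested, 2.08% were called higher and 3.12% lower. The 3 were *Col12a1*, *Col14a1* and *Col8a1*, and all 3 also had a Benjamini-Hochberg adjusted p under 0.05, which together with a fold change over 1.5 held for 2.2% of all clusters in either direction. The median log2 fold change over the 14 was 0.17, against -0.02 over all clusters tested, and without wild type array C it was 0.20 over 13 collagens, against -0.02. *Col5a1* and *Col18a1* reached 100 only on mutant mesangial arrays, and *Col15a1* only on wild type array C. Without that array *Col14a1* too reached it only on mutant arrays. The minimum thus has a part in these medians, and no shift is read from them. In bulk RNA of sorted cells, more cells with a transcript and more transcript per cell cannot be told apart.

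*Col12a1* encodes type XII collagen, a fibril-associated collagen of tendon, ligament and tissues under mechanical load. Its signal was 533.1, 622.9 and 494.4 on the wild type mesangial arrays A, B and C. On the mutant arrays it was 1985.5, 2069.7 and 2310.1. Every mutant array lay far above every wild type array, and both groups were tight. The difference was 1.95 on the log2 scale (SE 0.12), a 3.87-fold higher signal, with an adjusted p of 0.00244 from limma, and leaving out each array in turn kept it between 1.88, without wild type array C (adjusted p = 0.00332), and 2.04.

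*Col14a1* encodes type XIV collagen, which binds the same fibrils and limits their growth in diameter. The wild type mesangial arrays gave signals of 82.6, 85.9 and 138.9 for it, and the mutant arrays 507.4, 351.2 and 562.8. On wild type arrays A and B the signal was below the minimum of 100, array C stood above them, and all 3 mutant arrays were well beyond that array. The adjusted p was 0.0134. With the wild type arrays below the minimum set to 100, the mutant signal was at least 4.16-fold higher, and without wild type array C, where no wild type array reached 100, at least 4.65-fold higher. *Col14a1* then entered the limma test only through the mutant arrays, so its adjusted p there (0.00458) is not read as support.

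*Col8a1* encodes the alpha chain of type VIII collagen, a short-chain collagen of vessel walls and of the membrane under the corneal endothelium. Wild type mesangial arrays had signals of 538.6, 415.0 and 522.5 and mutant arrays 824.1, 924.2 and 1086.8. The ranges did not overlap. The log2 fold change was 0.94 (SE 0.15, adjusted p = 0.0292), a 1.92-fold difference. Its leave-one-out range was 0.82 to 1.04, with 0.99 without wild type array C (adjusted p = 0.0430). The partner chain, *Col8a2*, was below 100 on all 18 arrays, with signals between 52.9 and 78.0.

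Promoter sequences, taken from RefSeq (assembly GRCm38.p6) as 250 bases before to 50 after a gene's start, were found for 29 of the 36 collagens. The motifs sought on both strands, by exact letters, were CCAAT (the CCAAT box), TATAA (the core of a TATA box), GGGCGG (the GC box bound by Sp factors) and TGANTCA (the AP-1 element), none of which contains another. The 29 genes, which do not include *Col12a1* and *Col14a1*, have 32 promoter entries. Of these entries 18 held a GC box (56.2%, against 35.9% of all 32544 entries) and 10 a CCAAT box (31.2%, against 37.4%), 6 held TATAA (18.8%, against 24.8%) and 1 an AP-1 element (3.12%, against 7.79%). The *Col8a1* promoter is printed because, of the 3 genes that rose in mutant mesangial cells, it is the one with an entry, that of *Col6a3* because it was high in mesangial cells as well, and that of *Col15a1* because it was high in endothelial cells. Capitals mark the GC box, here in its complement, CCGCCC, and the *Col6a3* and *Col15a1* stretches hold none of the 4 motifs. The stretches are chr16:57754688-57754987 (minus strand) for *Col8a1*, chr1:90843922-90844221 (minus strand) for *Col6a3* and chr4:47207762-47208061 (plus strand) for *Col15a1*, each written 5′ to 3′ along the gene.
Col8a1: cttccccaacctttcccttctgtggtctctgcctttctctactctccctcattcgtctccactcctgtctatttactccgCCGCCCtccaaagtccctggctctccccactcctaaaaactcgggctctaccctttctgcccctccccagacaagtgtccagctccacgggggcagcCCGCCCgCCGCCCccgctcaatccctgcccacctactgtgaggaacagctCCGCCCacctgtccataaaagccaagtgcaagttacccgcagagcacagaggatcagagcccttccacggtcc
Col6a3: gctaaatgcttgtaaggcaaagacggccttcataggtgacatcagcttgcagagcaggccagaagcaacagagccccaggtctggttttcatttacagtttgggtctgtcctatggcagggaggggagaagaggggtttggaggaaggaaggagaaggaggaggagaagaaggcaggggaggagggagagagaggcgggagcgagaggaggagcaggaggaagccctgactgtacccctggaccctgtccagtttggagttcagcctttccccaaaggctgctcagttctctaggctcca
Col15a1: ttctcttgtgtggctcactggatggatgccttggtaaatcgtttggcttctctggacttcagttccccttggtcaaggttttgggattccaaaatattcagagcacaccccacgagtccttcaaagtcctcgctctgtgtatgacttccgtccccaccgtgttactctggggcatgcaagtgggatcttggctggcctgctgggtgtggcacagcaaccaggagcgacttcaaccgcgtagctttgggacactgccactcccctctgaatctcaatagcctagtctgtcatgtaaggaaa
The 4 GC boxes of *Col8a1* lie on the strand opposite the gene, from -170 to -165, -73 to -68, -66 to -61 and -23 to -18 counted from the start of transcription at 0, and 60.3% of its 300 bases are G or C, against a median of 53.0% over all promoters.

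*Col6a3* encodes the largest chain of type VI collagen and lay just outside the screen. Its mesangial signals were 283.7, 314.7 and 288.4 in wild type and 371.8, 456.8 and 452.2 in mutant arrays. The groups did not overlap, but the log2 fold change of 0.53 (SE 0.11, adjusted p = 0.0595) was below the fold threshold, and without wild type array C it was 0.51 (adjusted p = 0.110). Its mean signal was 427 ± 47.8 in mutant and 296 ± 16.7 in wild type mesangial cells (SD, n = 3). The other type VI chains had weak signals in these cells. *Col6a1* had signals of 70.8, 74.5 and 64.0 in wild type and 83.1, 80.7 and 83.6 in mutant arrays and was not tested. *Col6a2*, its neighbour on chromosome 10, had a mean of 95.5 in wild type and 106 in mutant arrays and did not pass the screen.

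**Figure D1:**
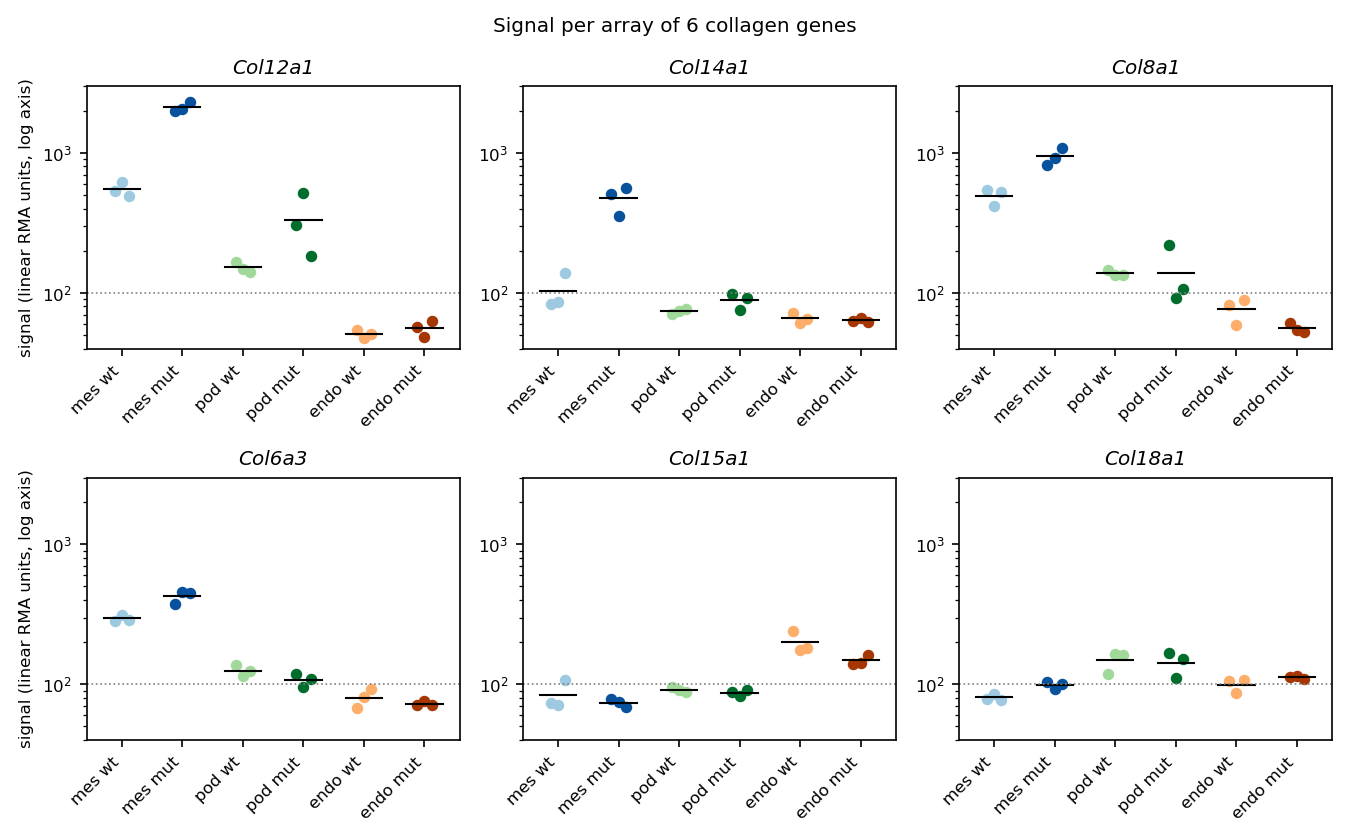
Signal of 6 collagen genes on each of the 18 arrays (linear RMA units, log axis), with 1 point per array in 6 groups: mesangial (mes), podocyte (pod) and endothelial (endo) cells of wild type (wt) and mutant (mut) mice. Horizontal bars are group means (n = 3) and the dotted line is the minimum of 100. *Col12a1*, *Col14a1*, *Col8a1* and *Col6a3* were highest on mutant mesangial arrays, *Col15a1* on wild type endothelial array A.

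The fibrillar collagens that define scar had weak array signals in mesangial cells of both genotypes. The study reports that many genes with strong RNA-seq changes were not seen by array, mostly because the array did not detect them. A weak signal is therefore not read as low expression. *Col1a1*, a chain of type I collagen, had signals of 114.8, 109.9 and 106.6 on wild type and 130.8, 114.1 and 120.3 on mutant arrays, with a log2 difference of 0.14 (adjusted p = 0.406) and overlapping groups. For *Col1a2*, the other type I chain, they were 115.9, 108.0 and 117.3 against 128.8, 131.0 and 130.3. The *Col1a2* groups were separate, but by only 0.19 on the log2 scale (SE 0.08, adjusted p = 0.213). *Col3a1*, the type III chain, was below the minimum, with 73.4, 71.7 and 68.5 on wild type and 81.4, 83.1 and 85.7 on mutant arrays, and was not tested. Of the type V chains, *Col5a1* had a mean of 87.4 in wild type and 100.5 in mutant arrays (log2 difference 0.20, adjusted p = 0.217), and *Col5a2* and *Col5a3* were below 100. Of the genes that represent this collagen group by their label, *Col8a1* alone passed the screen. In these cells *Col1a1* and *Col1a2* were near the minimum, and *Col3a1* was below it and not tested.

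Among the remaining collagens tested in mesangial cells, *Col18a1*, whose cleavage gives endostatin, had a mean signal of 99.01 ± 5.30 in mutant and 80.8 ± 4.57 in wild type arrays (SD, n = 3; log2 difference 0.29, adjusted p = 0.128). *Col15a1*, the second multiplexin, differed by -0.17 (adjusted p = 0.604). Neither passed the screen, nor did the cartilage collagens *Col9a2* and *Col9a3*.

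**Figure D2:**
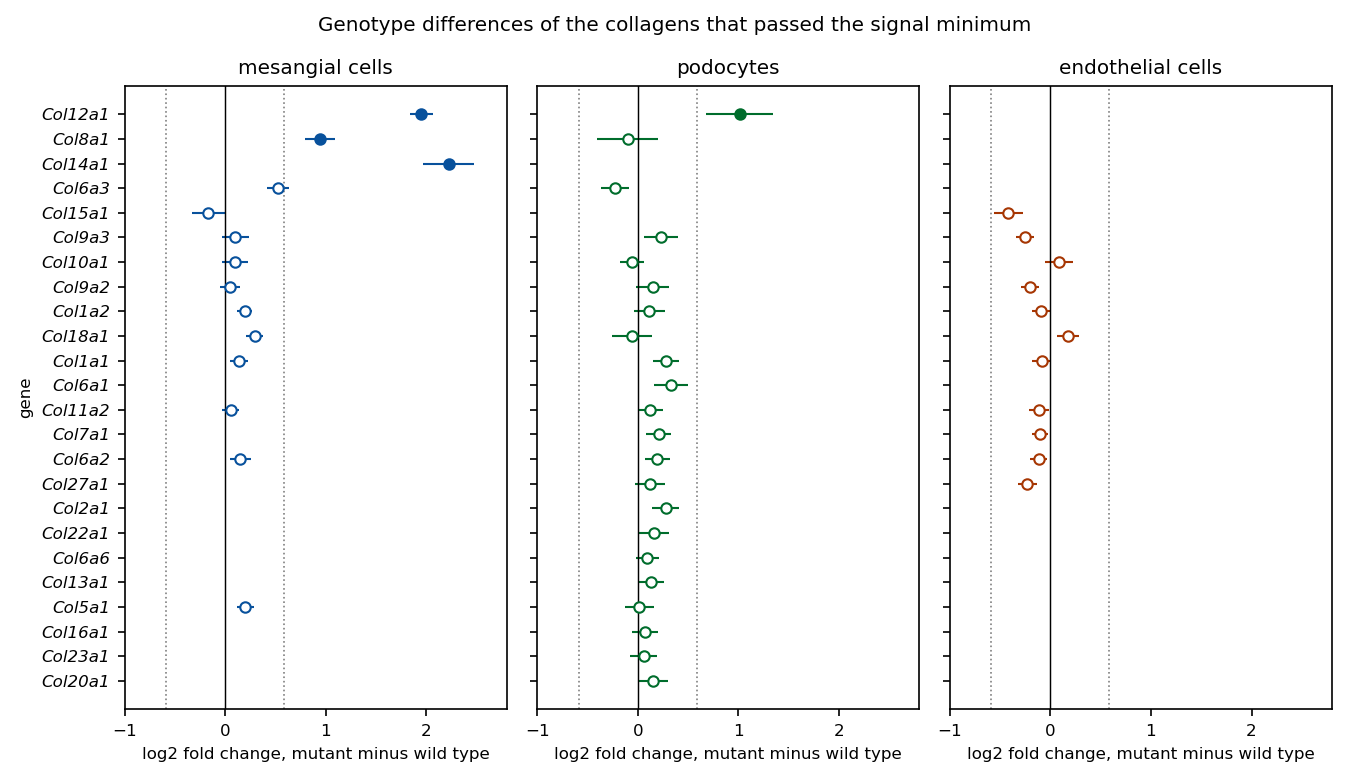
Log2 fold change, mutant minus wild type, with the standard error of the limma fit (bars), of each collagen that reached a signal of 100 on any of the 6 arrays of a cell type (14 in mesangial cells, 22 in podocytes, 11 in endothelial cells). Filled points passed the screen, and dotted lines mark a fold change of 1.5. Filled points are *Col12a1*, *Col8a1* and *Col14a1* in mesangial cells and *Col12a1* in podocytes, and wild type signals of *Col14a1* were below 100 on 2 of 3 mesangial arrays.

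Summed markers of several cell types differed between the genotypes in the mesangial arrays. The 8 mesangial markers summed to 4620 to 5130 in mutant and 6691 to 7530 in wild type arrays, 8 fibroblast markers to 1950 to 2190 and 3002 to 3303, and 7 smooth muscle and juxtaglomerular markers to 1821 to 3172 and 1611 to 1956. Endothelial markers summed to 2348 to 2596 in mutant and 2522 to 7736 in wild type arrays, podocyte markers to 755 to 855 and 848 to 3745, and 4 parietal epithelial markers to 394 to 516 and 298 to 325. The mesangial and fibroblast sums, lower in the mutant, and the parietal sums, higher in it, did not overlap between genotypes, whereas the smooth muscle, endothelial and podocyte sums did, and the upper ends of the last 2 in wild type came from array C alone. Of the fibroblast markers, 2 of 8 in mutant and 3 of 8 in wild type arrays had a mean of at least 100. Without wild type array C, which stood apart in podocyte, endothelial, leukocyte and tubule markers, the same 3 collagens were called. *Col14a1* was then below 100 on every wild type array in the fit and entered the test only through the mutant arrays. What part the other marker shifts have in the 3 calls was not tested.

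Podocytes are the epithelial cells whose foot processes form the slit diaphragm, and the question there was the same. Of 22 collagens tested, 1, *Col12a1*, was higher in mutant podocytes by the screen, and 0 were lower, against 1.26% and 4.34% of all 12113 clusters tested. None of the 22 passed an adjusted p under 0.05 with a fold change over 1.5, which 0.0578% of all clusters did. The wild type arrays had *Col12a1* signals of 166.5, 147.1 and 141.5 and the mutant arrays 304.1, 513.9 and 183.6. The mutant arrays spread widely, with array B highest and array C close to the wild type range, yet none overlapped it. The mean was 334 ± 167 in mutant and 152 ± 13.1 in wild type podocytes (SD, n = 3), and the log2 fold change was 1.02 (SE 0.33, adjusted p = 0.246), a 2.02-fold difference. Leaving out each array in turn moved it between 0.64, without mutant array B, and 1.39, without mutant array C.

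In the same podocyte arrays other cell markers shifted as well. Endothelial markers summed to 2607, 1194 and 764 on mutant arrays A, B and C, and to 4360 to 5770 on wild type arrays, and 7 of the 8 passed the screen as lower. Mesangial markers summed to 2117, 1731 and 975 on the mutant arrays and to 2348 to 3027 on the wild type arrays, whereas parietal epithelial markers summed to 959, 1145 and 888 and to 598 to 664. Smooth muscle and juxtaglomerular markers summed to 3302, 2665 and 1257 on the mutant arrays against 1023 to 1062, and fibroblast markers to 1011, 760.2 and 541 against 1283 to 1612, with 3 of the 4 fibroblast markers tested called lower. Called higher were 2 of 3 parietal epithelial, 2 of 5 smooth muscle and juxtaglomerular and 1 of 4 leukocyte markers tested. Called lower were also 3 of 7 mesangial and 1 of 8 podocyte markers tested. On mutant array C, *Col12a1* and the summed mesangial, endothelial, fibroblast, smooth muscle and parietal markers were each at their lowest among the mutant podocyte arrays. On mutant array B, where *Col12a1* was highest, the parietal sum was highest too, but the mesangial, endothelial, fibroblast and smooth muscle sums were highest on array A. Podocyte markers summed to 12523, 11338 and 14417 on mutant arrays A, B and C, lowest where *Col12a1* was highest, and to 12939 to 14715 on wild type arrays. Their part in the *Col12a1* difference was not tested.

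**Figure D3:**
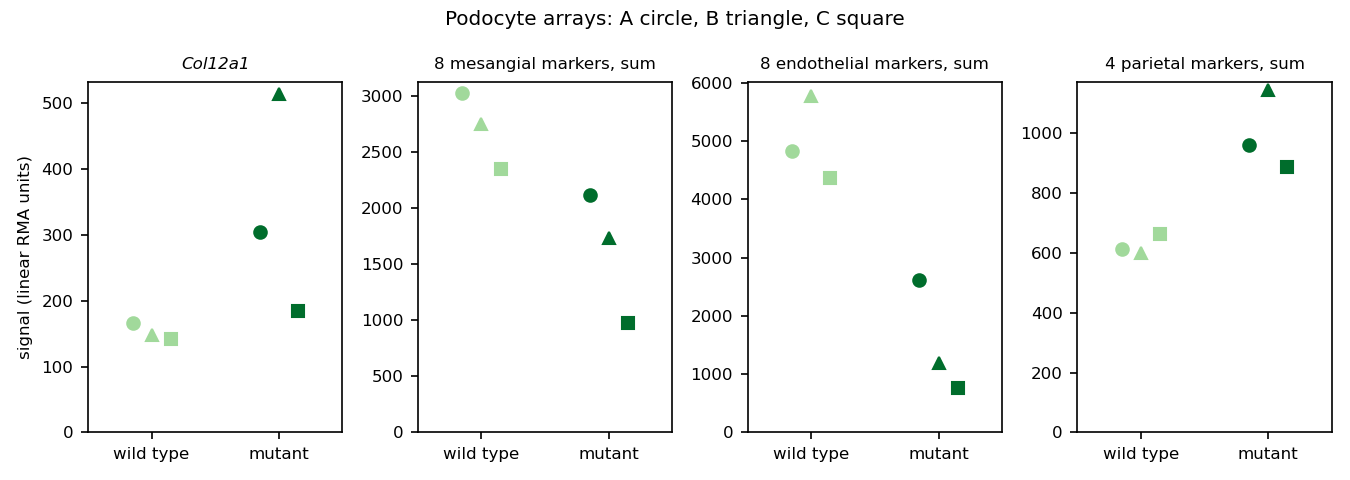
Signal of *Col12a1* and summed signals of 8 mesangial, 8 endothelial and 4 parietal epithelial markers on the wild type and mutant podocyte arrays (linear RMA units, axes from 0), with arrays A, B and C as circle, triangle and square. *Col12a1* was 304.1, 513.9 and 183.6 on mutant arrays A, B and C, where mesangial and endothelial sums were below, and parietal sums above, those of the wild type arrays.

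Of the other collagens of the mesangial calls, *Col8a1* did not pass the screen in podocytes and *Col14a1* was not tested there. *Col8a1* had signals of 144.7, 134.8 and 133.5 on wild type and 218.6, 91.6 and 106.1 on mutant podocyte arrays. Mutant array A was the highest of the 6 and arrays B and C the lowest, so the groups overlapped, with a log2 difference of -0.10 (SE 0.30, adjusted p = 0.910). *Col14a1* stayed below 100, with 70.1, 74.5 and 77.0 on wild type and 98.6, 75.2 and 91.2 on mutant arrays, and was not tested. *Col6a3* had a mean of 125 in wild type and 107 in mutant podocytes (log2 difference -0.22, adjusted p = 0.499). The type I chain *Col1a1* had 117.6, 126.6 and 145.5 on wild type and 153.0, 155.3 and 165.1 on mutant arrays, groups that did not overlap, with a log2 difference of 0.29 (adjusted p = 0.370) below the fold threshold. *Col1a2*, whose groups overlapped, had 149.3, 147.3 and 185.5 against 189.2, 149.7 and 182.2, and *Col3a1* 65.5, 70.7 and 71.9 against 77.2, 80.0 and 88.0, the latter below the minimum of the test. *Col6a1* had a mean of 121 ± 25.0 in mutant and 95.4 ± 7.41 in wild type arrays (SD, n = 3; log2 difference 0.33, adjusted p = 0.427). Over the 22 collagens the median log2 fold change was 0.13, against -0.04 over all clusters tested. *Col2a1*, *Col13a1*, *Col20a1* and *Col22a1* reached 100 only on mutant podocyte arrays. The minimum itself thus favours a higher median, and no shift is read from it.

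Glomerular endothelial cells are fenestrated and line the capillary loops. Of 11 collagens tested there, 0 were called higher and 0 lower, where 2.96% and 0.865% of all 11330 clusters were, and 1.13% of all clusters passed the adjusted p and the fold threshold. Unadjusted, 4 of the 11 had p under 0.05, all lower in the mutant: *Col15a1*, *Col27a1*, *Col9a2* and *Col9a3*, with log2 differences of -0.42, -0.23, -0.20 and -0.25. By that rule alone 5.47% of all clusters were lower and 13% higher. Of the 4, *Col27a1* reached 100 only on wild type endothelial array A, so it entered the test through the group where it was higher. The median signal of all clusters below 250 on every array was 49.7, 49.9 and 51.4 on the mutant and 52.9, 52.6 and 53.6 on the wild type endothelial arrays, and what part this has in the small differences was not tested. *Col15a1* encodes type XV collagen, found beside the basement membrane of capillaries and muscle. Its signals were 242.2, 175.4 and 181.3 on wild type and 140.1, 141.7 and 163.1 on mutant endothelial arrays. Every mutant array was below every wild type array, and the means were 148 ± 12.8 and 199.7 ± 37.0 (SD, n = 3). The log2 difference (SE 0.14) had an adjusted p of 0.195 and was below the fold threshold.

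The collagens called in mesangial cells were low in endothelial cells of both genotypes. *Col12a1* had 54.2, 47.6 and 50.8 on wild type and 56.8, 48.4 and 62.9 on mutant arrays. *Col14a1* had 71.6, 60.7 and 65.4 and 63.0, 66.0 and 61.6, and *Col8a1* 81.6, 59.3 and 88.5 and 61.0, 54.5 and 52.6. All 3 were below 100 on the 6 endothelial arrays, as was *Col3a1*, with 74.6, 66.5 and 71.9 and 55.95, 58.7 and 67.7. *Col1a1* was close to the minimum with 108.5, 124.4 and 114.1 on wild type and 110.8, 102.8 and 113.4 on mutant arrays, and *Col1a2* was 101.4, 88.3 and 89.5 against 89.8, 81.8 and 90.8, with log2 differences of -0.08 and -0.09. The median over the 11 collagens was -0.11, against 0.07 over all clusters tested. *Col1a2*, *Col6a2*, *Col7a1* and *Col27a1* reached 100 only on wild type endothelial arrays. The minimum itself thus favours a lower median, and no shift is read from it.

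In wild type mice the cell types were compared over 9 arrays, with 20 collagens among 12537 transcript clusters tested, to see in which cell each collagen was high in control mice. The 3 comparisons share arrays and are not independent. If the +:- in the mesangial column names marks heterozygous mice, *Cd2ap* dosage and cell type cannot be told apart in comparisons with mesangial cells, the interactions included. In podocytes against mesangial cells, 1 collagen was higher and 3 were lower with an adjusted p under 0.05 and a fold change over 1.5, against 5.9% and 9.24% of all clusters. In podocytes against endothelial cells 4 were higher and 1 lower (9.83% and 11.6%), and in mesangial against endothelial cells 4 were higher and 1 lower (9.58% and 7.91%). With signals below 100 set to 100, the fold was under 1.5 for *Col18a1*, the collagen higher in podocytes than in mesangial cells, for *Col8a1* and *Col6a3* among the 4 higher in podocytes than in endothelial cells, and for *Col14a1* among the 4 higher in mesangial than in endothelial cells.

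*Col12a1*, *Col8a1* and *Col6a3* followed 1 order, mesangial cells above podocytes above endothelial cells. Summed mesangial markers followed it too, with 6691 to 7530, 2348 to 3027 and 618 to 649 on the wild type arrays of these cells. What part mesangial transcript in the podocyte sort has in the podocyte signals was not tested. For *Col12a1* podocytes were lower than mesangial cells by -1.86 on the log2 scale (SE 0.11, adjusted p = 1.06e-05) and higher than endothelial cells by 1.58 (adjusted p = 6.68e-06), and mesangial cells exceeded endothelial cells by 3.43. For *Col8a1* the log2 differences were -1.83 and 0.87, and 2.70 between mesangial and endothelial cells. Endothelial signals of all 3 genes were below 100 on every wild type array, so how far they lie under the other cells depends on the background of the array. For these genes no adjusted p against endothelial cells is therefore read as support. Set to 100, they give mesangial signals at least 5.48-fold, 4.89-fold and 2.95-fold higher for *Col12a1*, *Col8a1* and *Col6a3*, and podocyte signals at least 1.51-fold, 1.38-fold and 1.25-fold higher. The *Col6a3* values were -1.24 between podocytes and mesangial cells, 0.64 between podocytes and endothelial cells and 1.89 between mesangial and endothelial cells. Without wild type podocyte array A or wild type endothelial array A, the *Col6a3* difference between podocytes and endothelial cells was 0.58 and 0.53 and no longer exceeded the fold threshold. The other calls of these 3 genes in wild type cells were kept without each array in turn.

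*Col15a1* was highest in endothelial cells, at -1.26 for mesangial and -1.11 for podocyte arrays relative to them on the log2 scale (adjusted p = 4.41e-04 and 7.57e-04). Its wild type signals were 74.0, 71.6 and 107.0 in mesangial cells and 95.6, 90.7 and 88.1 in podocytes, all below the lowest endothelial array. Of these 6 signals 1 reached 100. With the others set to 100, the endothelial signal was at least 1.93-fold that of mesangial cells and 1.97-fold that of podocytes. No podocyte signal reached 100, so the adjusted p against podocytes is not read as support. The other multiplexin, *Col18a1*, was higher in podocytes (119.3, 163.4 and 161.9) than in mesangial cells (79.0, 86.0 and 77.4), by 0.86 on the log2 scale (SE 0.14, adjusted p = 0.00151). The mesangial signals of *Col18a1* were below the minimum, so this adjusted p is not read as support. Set to 100, they give a podocyte signal at least 1.47-fold higher. Against endothelial cells (105.1, 86.2 and 107.5) the podocyte value of *Col18a1* was 0.57 higher (adjusted p = 0.0101), below the fold threshold. *Col1a2* was 0.78 higher in podocytes than in endothelial cells (adjusted p = 4.44e-04) and 0.49 higher than in mesangial cells, the latter below the fold threshold, while *Col1a1* did not pass in any of the 3 comparisons. *Col14a1* was 0.60 higher in mesangial than in endothelial cells (adjusted p = 0.0301), and this call was lost without wild type endothelial array B or C and without a signal minimum. Without wild type mesangial array C it was below 100 on every remaining wild type array, so it could not be tested, and apart from that array its signals in both cells were below 100. The wild type mesangial array C that carried podocyte and endothelial transcripts also had the highest mesangial signals of *Col14a1* and *Col15a1* among the controls.

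Whether the genotype differences themselves differed between cell types was tested as an interaction in 1 limma fit over the 18 arrays, with 24 collagens among 13523 transcript clusters. Between podocytes and mesangial cells 1 collagen had an adjusted p under 0.05, against 0.717% of all clusters, between endothelial and mesangial cells 2, against 1.07%, and between endothelial cells and podocytes 0, against 2.11%. These were *Col14a1* in both comparisons and *Col12a1* in endothelial cells. *Col14a1* was below 100 on all podocyte and endothelial arrays and *Col12a1* on all endothelial arrays, so both entered only through cells in which they were higher, and no difference between cell types is read from these calls. Of the 24 collagens, 12 reached 100 in both podocytes and mesangial cells, 9 in both endothelial and mesangial cells and 10 in both endothelial cells and podocytes. Between podocytes and mesangial cells the interaction of *Col12a1* was -0.93 (adjusted p = 0.269), and without mutant podocyte array B, where *Col12a1* was highest among podocyte arrays, it was -1.31 (adjusted p = 0.0173). Without mutant podocyte array C it was -0.57 (adjusted p = 0.336), so its size rests on which mutant podocyte arrays are in the fit. *Col8a1* had an interaction of -1.04 in podocytes against mesangial cells (adjusted p = 0.204) and *Col6a3* one of -0.75 (adjusted p = 0.0626). Neither passed the threshold. Without mutant podocyte array A, on which *Col8a1* was highest among podocyte arrays, they were -1.42 (adjusted p = 0.00353) and -0.82 (adjusted p = 0.0238), and that of *Col6a3* also passed without mutant mesangial array A (-0.84) or wild type endothelial array A.

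Most collagens had weak array signals throughout, which are not read as low expression. In 32 of the 36 the signal was below 250 on every array, and the median over the 32 genes of the ratio between the highest and the lowest array was 1.53, against 1.44 for all clusters below 250 on every array. Of these 32, 25 had their highest signal on mutant podocyte array C, 2 on array A and 1 on array B, whereas 28.2% of all such clusters had it on array C. The median signal of the 32 was 110.3 on that array and 75.4 on wild type mesangial array C, the lowest. Over all clusters below 250 on every array it ranged from 49.7 to 57.6, again highest on mutant podocyte array C. The collagens and all weak clusters were thus both highest on 1 array, and the podocyte signals of *Col1a1*, *Col9a2* and *Col9a3* were highest there as well.

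**Figure D4:**
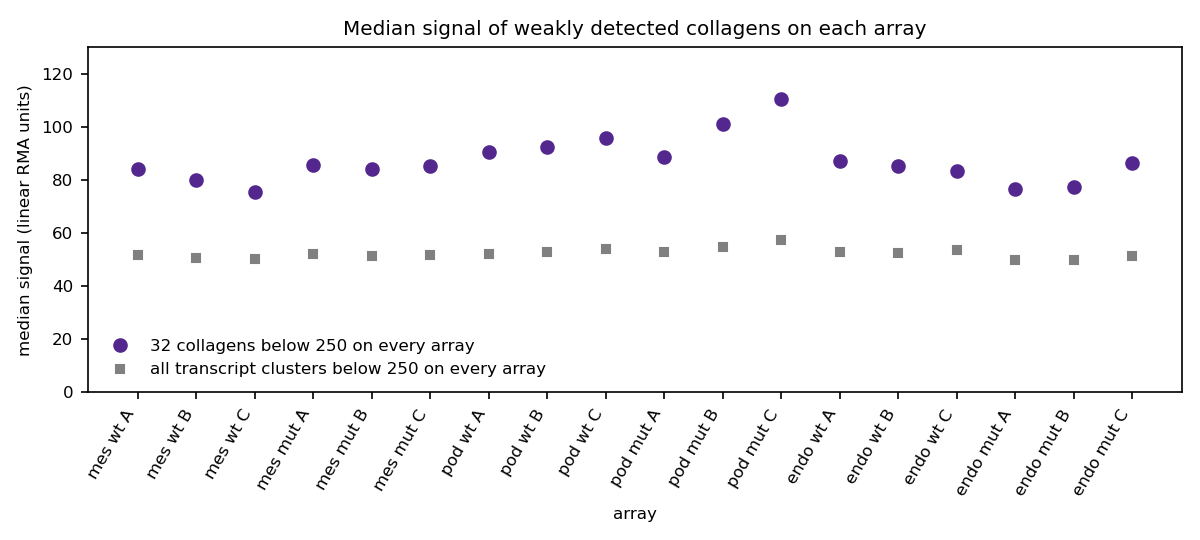
Median signal (linear RMA units, axis from 0) on each of the 18 arrays of the 32 collagens below 250 on every array (circles) and of all transcript clusters below 250 on every array (squares). The collagen median runs from 75.4 on wild type mesangial array C to 110.3 on mutant podocyte array C, and that of all weak clusters from 49.7 to 57.6.

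By class, the signals of the weak collagens over the 18 arrays were as follows. Of the fibrillar genes, *Col2a1* of cartilage lay between 78.3 and 125.3, *Col5a1* between 78.2 and 113, *Col11a2* between 88.8 and 135.5 and *Col27a1* between 80.1 and 134.8. The fibril-associated *Col9a2* and *Col9a3*, chains of the cartilage collagen type IX, were at least 100 on all 18 arrays, between 121.6 and 221.9 and between 113.3 and 231.3. *Col16a1*, *Col20a1* and *Col22a1* of the same class reached 100 on 3, 2 and 1 arrays. The beaded filament genes *Col6a2* and *Col6a6* reached it on 11 and 6 arrays, the transmembrane genes *Col13a1* and *Col23a1* on 2 and 3, and *Col7a1*, which anchors epidermis to dermis, on 7. *Col10a1*, of growth plate cartilage, was between 137.6 and 229.3, but on a cluster shared with *Nt5dc1*, the gene it lies within, and the cluster that carries *Col10a1* alone lay between 62.0 and 93.4. The clusters of *Col9a3* and *Col7a1* also carry a second symbol (*Tcfl5* and *Mir711*), so the signal of these 3 genes cannot be ascribed to the collagen alone. Neighbouring members were *Col3a1* and *Col5a2*, and *Col9a1* and *Col19a1*, on chromosome 1, and these 4 were below 100 on every array.

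Collagen chains are hydroxylated, glycosylated and folded in the endoplasmic reticulum, trimmed outside the cell, and then crosslinked by lysyl oxidases. Of 25 genes of synthesis and processing on the array, 19 were tested in mesangial cells, and 1 was higher and 1 lower by the screen, none with an adjusted p under 0.05. The shares of all clusters to set beside this and the next lists are 2.08% higher and 3.12% lower in mesangial cells, 1.26% and 4.34% in podocytes, and 2.96% and 0.865% in endothelial cells. *Glt25d1*, a collagen galactosyltransferase, rose by 0.62 on the log2 scale (SE 0.19, adjusted p = 0.139), with 355.97, 340.9 and 402.7 on wild type and 462.2, 504.6 and 759.5 on mutant arrays, and without wild type array C it was 0.69 higher and still called. *Leprel1*, a collagen prolyl hydroxylase, fell by 0.61 (adjusted p = 0.112), and without wild type array C the difference was -0.43 and no longer passed the fold threshold. In podocytes 19 were tested, *Glt25d2* was higher (0.90, adjusted p = 0.205) and *P4ha1*, the catalytic subunit of the prolyl hydroxylase that stabilizes the triple helix, was lower (-0.73, SE 0.12, adjusted p = 0.118), with 236.4, 237.6 and 234.2 on wild type and 142.7, 152.3 and 134.0 on mutant arrays. In endothelial cells 0 of 15 passed.

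Of the 5 crosslinking enzymes, the 4 lysyl oxidase relatives and *Lox* itself, 2 were tested in mesangial cells and *Loxl2* was higher there. It had signals of 126.8, 131.7 and 192.6 on wild type and 233.7, 350.5 and 425.6 on mutant arrays, which did not overlap, and a log2 fold change of 1.15 (SE 0.25, adjusted p = 0.0689), or 1.34 without wild type array C. In podocytes 0 of 3 and in endothelial cells 0 of 1 passed. Among 9 collagen receptors, 0 of 5 passed in mesangial cells, while in podocytes 1 of 5 was lower, the integrin chain *Itga2* (-0.75, SE 0.25, adjusted p = 0.259).

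In endothelial cells 1 of 2 receptors tested was higher, *Itga1*, the alpha chain of an integrin that binds types I and IV collagen. Its signals were 93.2, 64.6 and 70.9 on wild type and 178.9, 177.1 and 216.4 on mutant arrays, with no overlap (adjusted p = 0.00834). All wild type arrays were below the minimum, so *Itga1* entered the test only through the mutant arrays. Its adjusted p is therefore not read as support. Set to 100, the wild type signals give a mutant signal at least 1.90-fold higher. Of the 6 type IV genes, 0 of 4 passed in mesangial cells and 0 of 5 in podocytes. Both of the 2 tested in endothelial cells were higher, *Col4a1* by 0.63 (SE 0.14, adjusted p = 0.0855) and *Col4a2* by 0.69 (SE 0.19, adjusted p = 0.142). Summed signals of several marker lists differed as well in the same arrays. Fibroblast markers summed to 2651 to 2896 in mutant and 2201 to 2552 in wild type arrays, with 0 of 2 tested called, and leukocyte markers to 399 to 725 and 373 to 428, with 0 of 3 called. Endothelial markers summed to 16465 to 17230 and 14889 to 16607, with 1 of 8 higher, and podocyte markers to 1497 to 1641 and 1390 to 1504. Mesangial markers summed to 579 to 622 and 618 to 649, smooth muscle and juxtaglomerular markers to 639 to 661 and 546 to 696, parietal epithelial markers to 214 to 237 and 235 to 245, and tubule markers to 282 to 305 and 325 to 336. The fibroblast and tubule sums did not overlap between genotypes. In each genotype 2 of 8 fibroblast markers and no tubule marker had a mean of at least 100. Neither sum is therefore read as content of those cells. What part the marker sums have in the *Itga1*, *Col4a1* and *Col4a2* calls was not tested.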

How the data were processed

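GFP positive sorted cells gave RNA for 1 round of linear Ribo-SPIA amplification, followed by array hybridization. The authors deposited linear intensity values, which the sample records ascribe to RMA (Expression Console), and 18 normalized columns of the same arrays, which were not used. The series design text gives Exon arrays and GeneBASE, unlike the file header. Array columns were assigned to groups by their names, and letters A, B and C follow column order only. The log2 of the deposited intensity was tested in R 4.3.3 with limma 3.58.1 (lmFit, eBayes), per cell type for genotype, over the 9 wild type arrays for cell types and over 18 arrays for interactions. Transcript clusters entered when any array of a comparison reached 100, and p-values were adjusted over all of them by Benjamini-Hochberg. The authors screened on a moderated test in GeneSpring with p below 0.05 and more than 1.5-fold change, and these thresholds were applied here to limma. Interactions are read only for collagens that reached 100 in both cell types, a limit chosen after the values were seen. The scripts were tested on simulated data. With 3 arrays per group their number limits the precision, and p-values measure the spread between these arrays.

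Values on every array are given for collagens that passed a genotype screen and for *Col8a1*, *Col1a1*, *Col1a2* and *Col3a1*. The other collagens are given by means or ranges, and genes of the synthesis, crosslinking, receptor and type IV lists where they passed a genotype screen. The members, lists and markers were chosen with earlier results of these data known. Alternatives were the signal minimum, the arrays in the fit, eBayes options, scaling, the mean over clusters of a gene, leaving out each array, and the adjusted p in place of the screen. RNA-seq libraries of the study are not analysed here. Some single genes of the marker lists are not reported here.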

Additional observations from a re-analysis of the deposited data

How the results depend on the processing

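For 18 called differences of single collagens, besides interactions not measured in both cell types, 272 of 278 recomputed values kept their direction and their call, and 0 reversed. Settings in which a collagen could no longer be tested are not among the 278. These concerned *Col14a1* in mesangial against endothelial cells, without wild type mesangial array C or with the minimum required on all arrays of a group. With an adjusted p in place of the screen the podocyte count was 0, since *Col12a1* had an adjusted p of 0.246. Quantile normalization of the signals again gave 2 collagens for the interaction of podocytes with mesangial cells, *Col6a3* joining *Col14a1* with an adjusted p of 0.0334, and no signal minimum gave 1 for endothelial cells with podocytes, *Col3a1*, which was below 100 on all 18 arrays. Leaving out each array in turn gave counts of 3 to 4 in mesangial cells, 1 to 1 in podocytes and 0 to 0 in endothelial cells. In wild type arrays the counts were 4 to 4 for podocytes against mesangial cells, 5 to 6 for podocytes against endothelial cells and 4 to 5 for mesangial against endothelial cells. The interaction counts, which include collagens below 100 in 1 of the cell types, were 1 to 3 for podocytes with mesangial cells, 2 to 3 for endothelial with mesangial cells and 0 to 2 for endothelial cells with podocytes. The cause of these shifts was not tested. No paired analysis was possible because the column names carry no replicate number shared between groups.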

Other observations

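In wild type cells, of 6 collagen receptors tested, 2 were higher and 2 lower in podocytes than in mesangial cells, with an adjusted p under 0.05 and a fold change over 1.5, and of 5 type IV chains 3 were higher and 2 lower, against 5.9% and 9.24% of all transcript clusters. *Itga1* had wild type signals of 1060.3, 983.2 and 792.7 in mesangial cells, 335.9, 194.0 and 198.3 in podocytes and 93.2, 64.6 and 70.9 in endothelial cells, so the groups did not overlap and each was below the one before. *Itga2* was highest in podocytes, with 340.4, 224.0 and 290.3 there and no signal over 70.2 in the other wild type cells. It thus entered the test only through podocytes. *Ddr2*, below 100 on all wild type podocyte arrays, entered only through mesangial cells. Of the type IV chains, 5 had a mean of at least 100 in podocytes and 3 in mesangial cells. The signal minimum thus has a part in the counts of both lists, and no difference is read from those counts.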
